A study of Bos taurus and Bos indicus with 3 samples.

Results

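Transcripts of the bovine mitochondrial genome were described in leukocyte mRNA of 3 cattle breeds. The deposited table lists 34 gene models on the mitochondrial chromosome, and the 12 with an FPKM above 0 in any library were taken, out of 15286 models above 0 in the whole table of 25968. FPKM, the fragments per kilobase of exon scaled to the number of mapped fragments, is a level relative to transcript length. All 12 were above 0 in all 3 libraries. Of these, 10 models carry the 13 protein-coding genes and 2 unnamed models are the ribosomal RNAs. The table gives no name to the rRNA models; their place between the tRNA models and the rRNA biotype come from RefSeq (ARS-UCD2.0), whose 37 mitochondrial genes all lie inside a listed model, and the smaller was taken as 12S and the larger as 16S.

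Each library was made from poly(A)-selected RNA of white blood cells isolated from pooled tail vein blood. The Cholistani pool came from 45 cows of this indicine breed at a farm in Punjab, Pakistan, the Jersey pool from 7 cows and the Holstein pool from 40 cows of these taurine breeds in Wisconsin. The cows received no treatment that the labels name, and their ages are not given in the sources used here. With 1 library per breed, no replicate spread exists, so no test, error or p-value stands behind any difference below. Breed, farm, blood handling and library cannot be told apart, and the Cholistani RNA alone was shipped in a dry storage matrix. Fewer cells of a type and less RNA per cell cannot be told apart either. The fragments behind each value are unknown, so no counting interval was computed.

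The mitochondrial genome is a small circle that encodes core subunits of the respiratory chain and of ATP synthase, together with the RNAs of the mitochondrial ribosome. In mammals both strands are transcribed as long precursors, from which the tRNAs are cut out, so that most mRNAs lie between excised tRNAs. Most of these mRNAs receive short poly(A) tails, which for several of them complete the stop codon. Because the genes of a strand share their transcription, their separate levels are known to be shaped also by RNA processing and stability.

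The FPKM of all models summed to 9525773 in Cholistani, 6288105 in Jersey and 5949765 in Holstein, on the upper-quartile scale set by the authors. Leukocyte markers were present in every library: the T cell genes CD3D, CD3E and CD3G summed to 8740 FPKM in Cholistani, 4090 in Jersey and 4000.3 in Holstein. CD3E had 6016, 2127 and 2041 FPKM in that order, CD3D 1444, 891 and 943, and CD3G 1280, 1072 and 1016. The B cell gene CD79A had 14273, 6189.5 and 5281 FPKM in the same order. The neutrophil genes CSF3R, CXCR2 and NCF1 summed to 4666 FPKM in Cholistani, 935 in Jersey and 1105 in Holstein, and the monocyte gene CD14 had 398, 237 and 342 FPKM. The 2 matched platelet markers went opposite ways. PPBP had 621 FPKM in Cholistani, 939 in Jersey and 821 in Holstein, while GP9 had 190, 104 and 84.5 FPKM. The red cell gene ALAS2 had 32.3 FPKM in Cholistani, 363 in Jersey and 536 in Holstein, while an alpha globin model was listed at 0 in Holstein and reached 69.3 FPKM in Cholistani. These marker levels differed between the libraries on the deposited scale, and the part of cell composition in the mitochondrial values was not tested.

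Mitochondrial transcripts held nearly the same share of each library. The 12 models summed to 788126 FPKM in Cholistani, 508695 in Jersey and 479147 in Holstein, which is 8.27%, 8.09% and 8.05% of the FPKM sum of the library. In each library 3 of the 10 most abundant models of the whole table were mitochondrial. Among the 100 most abundant were 8 mitochondrial models in Cholistani, 10 in Jersey and 9 in Holstein. Even the least abundant member lay far above the median of all models above 0, which was 93.8 FPKM in Cholistani, 89.6 in Jersey and 91.6 in Holstein. That member was 16S rRNA in Cholistani (5545 FPKM), 12S rRNA in Jersey (8615 FPKM) and ND5 in Holstein (8946 FPKM).

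**Figure D1:**
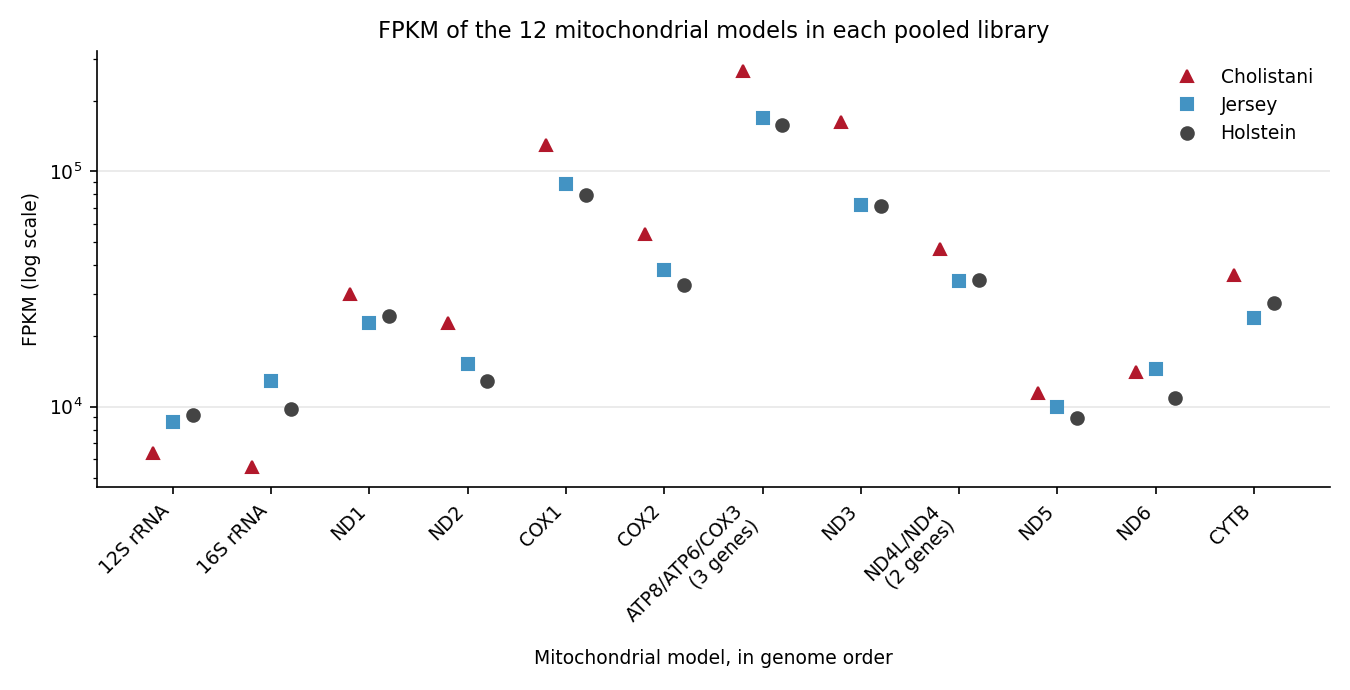
FPKM (log axis) of the 12 mitochondrial models in genome order, with 1 point per pooled library (triangles Cholistani, squares Jersey, circles Holstein). The Cholistani point lies below both others at 12S and 16S rRNA, between them at ND6, and above both at the remaining 9 models; merged models hold the sum of their genes.

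The RNAs of the mitochondrial ribosome were lower in the Cholistani library than in both taurine libraries. The 12S rRNA of the small subunit, on the mitochondrial chromosome (M) from 431 to 1385 (btau4.0), had 6379 FPKM in Cholistani, 8615 in Jersey and 9195 in Holstein. The 16S rRNA of the large subunit, from 1453 to 3023, had 5545 FPKM in Cholistani, 12919 in Jersey and 9819 in Holstein. The log2 ratio of FPKM + 1 for 12S was -0.53 against Holstein and -0.43 against Jersey. For 16S it was -0.82 and -1.22, and this value against Jersey was the one difference of at least 2-fold downward among the 12 models. Of the 15284 models with no missing value and above 0 FPKM in any library, 14.2% were at least 2-fold lower in that comparison. The 1 of 12 is thus close to this background, which includes models at 0 in some libraries. Between Jersey and Holstein, 12S differed by -0.09 and 16S by 0.40. The 16S to 12S ratio was 0.87 in Cholistani, 1.5 in Jersey and 1.07 in Holstein, so Jersey and Holstein also differed from each other.

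The libraries were selected for poly(A), and mitochondrial rRNAs carry short tails at most, so these values describe only the rRNA that passed the selection.

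Complex I, the NADH dehydrogenase that feeds electrons into the chain, has 7 mitochondrially encoded subunits in 6 models, all of which form its membrane arm. ND1, from 3101 to 4056, had 30272 FPKM in Cholistani, 22644 in Jersey and 24422 in Holstein. ND2, from 4266 to 5307, had 22663, 15200 and 12864 FPKM in the same order. For both genes the Cholistani library was the highest, while Jersey lay below Holstein for ND1 and above it for ND2.

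ND3 stood out among the 12 models. This small subunit, from 9823 to 10168, had 162084 FPKM in Cholistani, 71815 in Jersey and 71009 in Holstein, so the taurine libraries were nearly level. Its Cholistani value was 2.28 times that of Holstein and 2.26 times that of Jersey (log2 1.19 and 1.17). ND3 was the only one of the 12 to reach a 2-fold higher level in Cholistani, in both comparisons, where 19.7% of all models reached it against Holstein and 17.2% against Jersey. The 1 of 12 is thus a smaller share than among all models. The listed span of ND3, 346 bases, is the shortest of the 12, and the part of transcript length in its difference was not tested. By listed span the next shortest model was COX2, which differed by 0.72 against Holstein and 0.50 against Jersey. The ND6 gene, at 528 bases in RefSeq, is shorter than COX2 but is listed with a longer span. It differed by 0.38 and -0.03.

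The remaining complex I models differed less. The merged model of ND4L and ND4, from 10239 to 11906, had 46710 FPKM in Cholistani, 34071 in Jersey and 34529 in Holstein. These genes overlap and share an mRNA, and the gene value of Cufflinks adds up the transcripts of a model, so the merged value is a sum over 2 genes. ND5 and ND6 are listed with the same span, from 12109 to 14440. ND5 had 11442 FPKM in Cholistani, 9931 in Jersey and 8946 in Holstein, the lowest protein-coding value in each library. ND6, the only protein-coding gene of the mammalian light strand, had 14094 FPKM in Cholistani, 14425 in Jersey and 10849 in Holstein. It was thus the one protein-coding model for which Cholistani did not exceed Jersey (log2 -0.03). The ND6 to ND5 ratio was 1.23 in Cholistani, 1.45 in Jersey and 1.21 in Holstein. No source used here says that strand was kept, so reads of ND6 cannot be told apart from heavy-strand RNA across the same bases.

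CYTB, the cytochrome b of complex III, lies from 14514 to 15653. It had 36424 FPKM in Cholistani, 23816 in Jersey and 27502 in Holstein. Its log2 ratio was 0.41 between Cholistani and Holstein, 0.61 between Cholistani and Jersey, and -0.21 between Jersey and Holstein, the lowest of the 12 in the last comparison.

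Complex IV, cytochrome c oxidase, passes electrons to oxygen. COX1, which holds its catalytic centre, is listed from 5687 to 7299 and had 129900 FPKM in Cholistani, 88848 in Jersey and 79333 in Holstein. COX2, which accepts electrons from cytochrome c, lies from 7374 to 8057 and had 54098, 38221 and 32787 FPKM. Their log2 ratios between Cholistani and Holstein were alike, 0.71 and 0.72. The COX1 to COX2 ratio was 2.40 in Cholistani, 2.32 in Jersey and 2.42 in Holstein.

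COX3 stands in a merged model with ATP8 and ATP6, both subunits of the membrane part of ATP synthase, from 8129 to 9750. No tRNA separates these 3 genes, and ATP8 and ATP6 overlap. The model had 268515 FPKM in Cholistani, 168191 in Jersey and 157891 in Holstein, the highest of the 12 in each library. It sums 3 genes, for a mean of 89505 FPKM per gene in Cholistani, 56064 in Jersey and 52630 in Holstein. Per gene it came next after ND3 and COX1 in Cholistani, and after COX1 and ND3 in both taurine libraries. How the sum divides between the 3 genes is unknown.

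**Figure D2:**
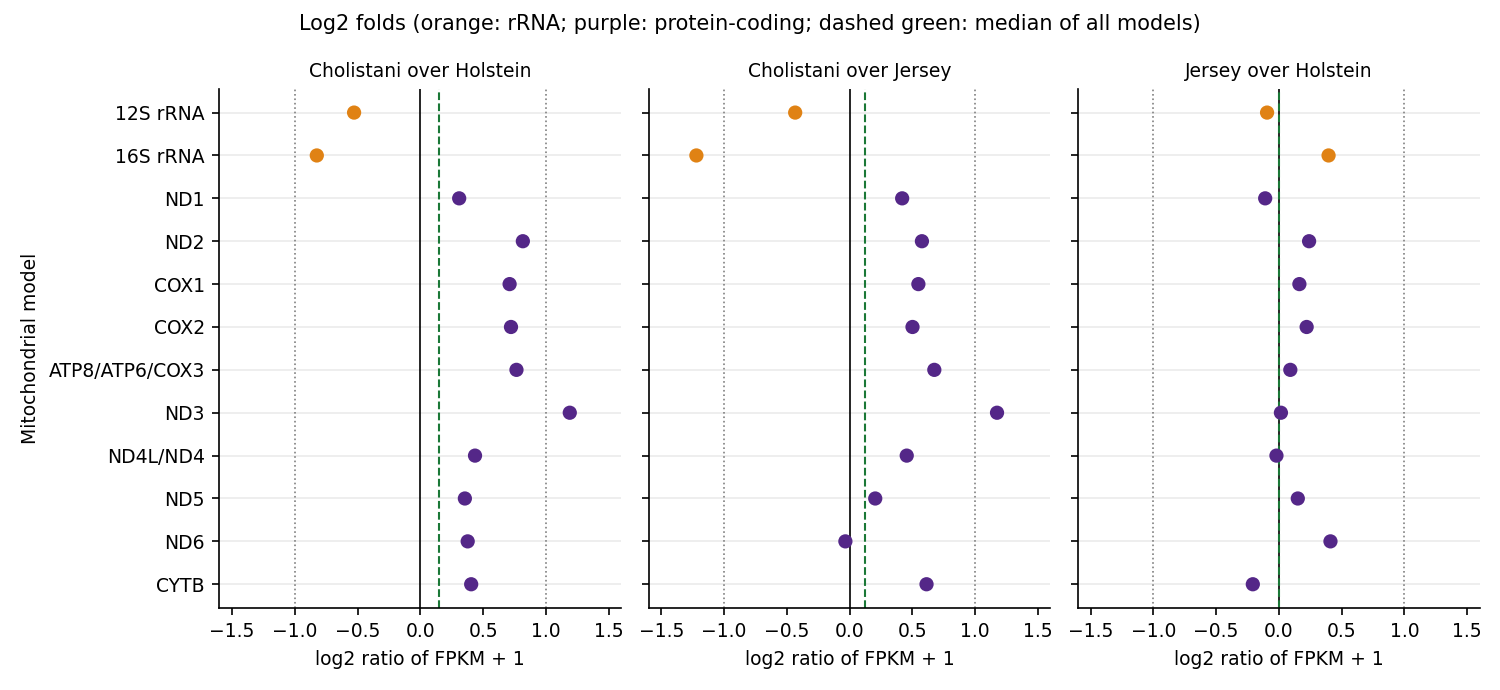
Log2 ratios of FPKM + 1 for the 12 mitochondrial models in the 3 comparisons, with rRNA models in orange, protein-coding models in purple, the 2-fold thresholds dotted and the median of all models dashed. In the Cholistani comparisons both rRNAs lie left of 0 and ND3 lies beyond the right threshold; between Jersey and Holstein all models lie between -0.21 and 0.41.

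Over the protein-coding models, the Cholistani library was higher than the Holstein library for 10 of 10, with a median log2 ratio of 0.57 and a range of 0.31 to 1.19. Against Jersey it was higher for 9 of 10, with a median of 0.52 and a range of -0.03 to 1.17. Both comparisons use the same Cholistani library, so the second is not independent of the first. Over all 15284 models the medians were 0.15 and 0.12, and 56.1% and 55.3% lay above 0. Between Jersey and Holstein the median of the protein-coding models was 0.12, with a range of -0.21 to 0.41, against a median of 0.00 over all models. None of the 12 models differed by 2-fold there, where 7.99% of all models were at least 2-fold higher in Jersey and 4.70% at least 2-fold lower.

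The direction of several protein-coding models depended on the scale between libraries. Rescaling each library to the same FPKM sum moved the median log2 ratio of all models between Cholistani and Holstein to -0.43. On that scale 5 of the 10 protein-coding models were higher in Cholistani than in Holstein (ND2, COX1, COX2, ATP8/ATP6/COX3 and ND3) and 5 were lower. Of all 15284 models, 4476 were higher there. Against Jersey 3 of 10 were higher (ATP8/ATP6/COX3, ND3 and CYTB), a share close to the 4478 of all 15284 models. ND3 remained the highest, at 0.51 against Holstein and 0.58 against Jersey, no longer 2-fold. Centring on nuclear models with at least 10 FPKM kept all 10 above 0 against Holstein, with ND3 at 1.01. After centring, 7467 of all 15284 models were above 0 in this comparison. Both rRNAs were lower in Cholistani on each of these scales: against Holstein, 12S was at -0.71 after centring and -1.21 after rescaling, and 16S was at least 2-fold lower on both. How many of all models were 2-fold lower on these 2 scales was not counted.

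**Figure D3:**
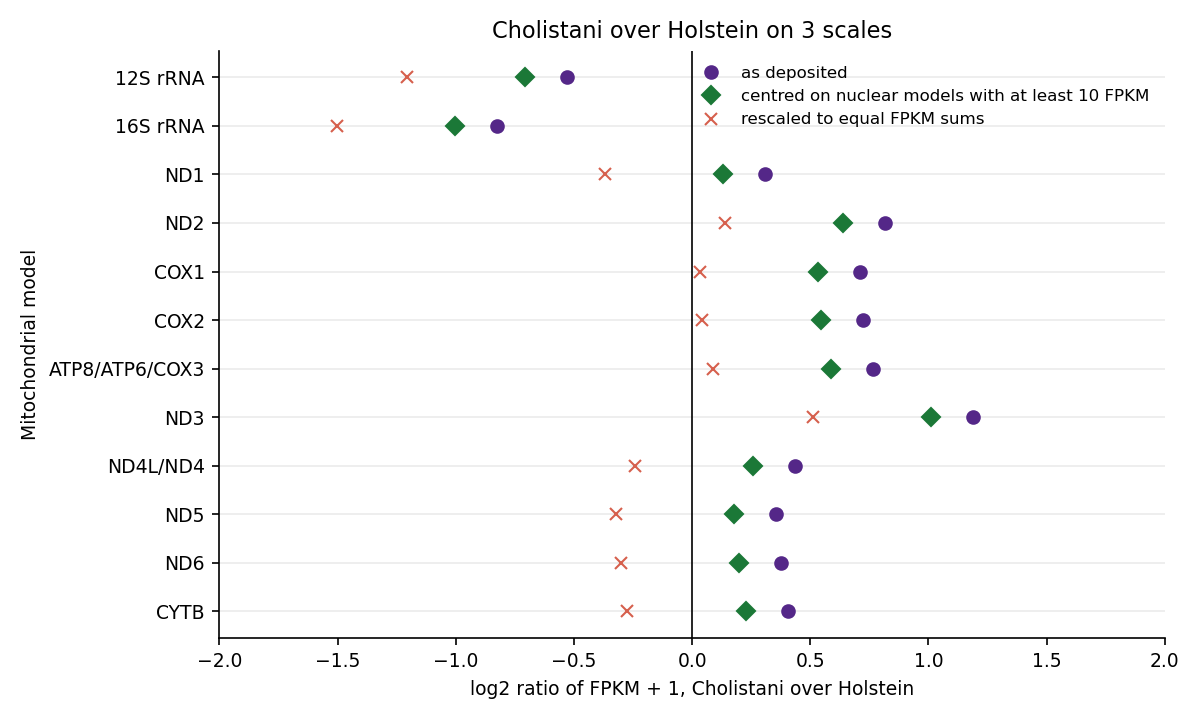
Log2 ratios of FPKM + 1 between Cholistani and Holstein for the 12 models as deposited (circles), centred on nuclear models with at least 10 FPKM (diamonds) and rescaled to equal FPKM sums (crosses). The rRNAs lie left of 0 on all 3 scales and ND3, the point farthest right, lies right of 0 on all 3, while ND1, ND4L/ND4, ND5, ND6 and CYTB cross 0 after rescaling.

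Ratios within a library do not depend on that scale. Both rRNAs together made up 1.51% of the mitochondrial FPKM sum in Cholistani, 4.23% in Jersey and 3.97% in Holstein. The median protein-coding model stood at 6.97 times the mean of the rRNAs in Cholistani, 2.69 times in Jersey and 3.17 times in Holstein. COX1 was at 23.4 times the 16S level in Cholistani, 6.88 times in Jersey and 8.08 times in Holstein. In all 3 measures Cholistani stood farther from either taurine library than these stood from each other. The 3 measures share the same rRNA values, so they are not independent of each other.

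ND3 made up 20.6% of the mitochondrial sum in Cholistani, 14.1% in Jersey and 14.8% in Holstein. COX1 held 16.5%, 17.5% and 16.6%, and the merged ATP8/ATP6/COX3 model held 34.1%, 33.1% and 33.0% in the same order. CYTB held 4.62%, 4.68% and 5.74%, and ND1 3.84%, 4.45% and 5.10%. Among the protein-coding models, ND3 was the one whose share differed most, in percentage points, between Cholistani and either taurine library.

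The shares also depend on how length is treated. With each FPKM multiplied by the listed span of its model, which counts merged and shared spans in full, the merged ATP8/ATP6/COX3 model held 44.2% in Cholistani, 40.5% in Jersey and 40.8% in Holstein, COX1 held 21.3%, 21.3% and 20.4%, ND3 held 5.70%, 3.69% and 3.92%, and the rRNAs held 1.5%, 4.23% and 3.86%. Weighting instead by the mean length of the RefSeq genes of a model was an alternative chosen after seeing the data. The rRNAs then held 2.39% in Cholistani, 6.65% in Jersey and 6.05% in Holstein, ND3 held 9.06%, 5.79% and 6.14%, and COX1 held 32.4%, 32.0% and 30.6%, ahead of the merged model at 24.1%, 21.7% and 21.9%. Which model was the largest changed with the weighting, while under both the rRNA share was lowest and the ND3 share highest in Cholistani.

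**Figure D4:**
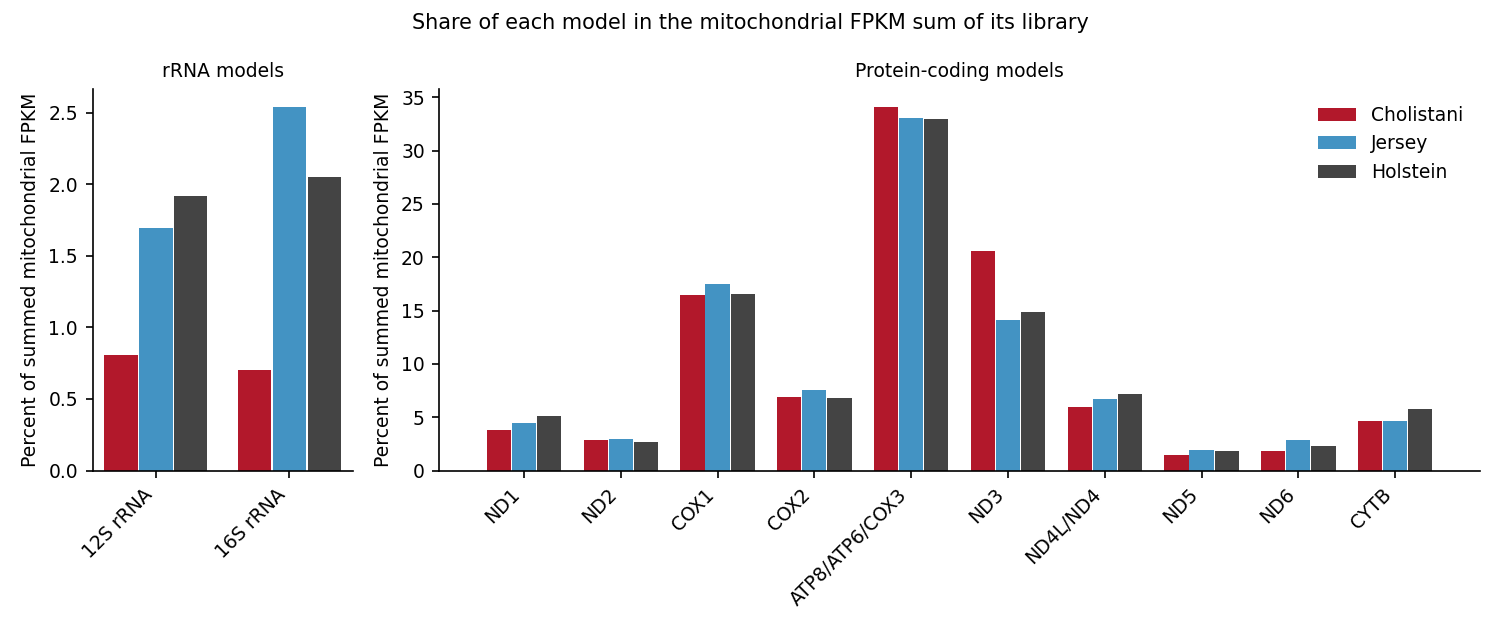
Share of each model in the summed mitochondrial FPKM of its library, in percent, for the rRNA models (left, with its own axis) and the protein-coding models (right). The Cholistani bars are the lowest for both rRNAs and the highest for ND3 at 20.6%.

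The order of the 12 models within a library was largely the same. Of 66 pairs of models, 61 stood in the same order in Cholistani and Holstein, 63 in Cholistani and Jersey, and 64 in Jersey and Holstein. The pairs that changed order between Cholistani and both taurine libraries were 12S with 16S rRNA, 16S rRNA with ND5, and COX1 with ND3. Along the genome, ND1 and ND2, next to the rRNAs, were lower than COX1 and COX2 downstream of them in every library, and ND4L/ND4 and ND5 were again below COX1. The range from the lowest to the highest model was 48.4-fold in Cholistani, 19.5-fold in Jersey and 17.7-fold in Holstein.

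The other 22 mitochondrial models were listed at 0 in every library. Their number equals that of the tRNA genes of the RefSeq annotation. Of these, 17 stand in a span of their own of 60 to 75 bases, and the others share a listed span with another model. A value of 0 for such short models was common elsewhere in the table. Of 507 nuclear models spanning up to 80 bases, 497 (98.0%) were listed at 0 in all libraries, against 41.1% of all 25934 nuclear models. Neither the absence nor the presence of tRNA can be read from these values.

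Most respiratory subunits are encoded in the nucleus, and their mRNAs were far less abundant. Of the 68 measured nuclear subunits of complexes I, III, IV and ATP synthase, the highest had 5760 FPKM in Cholistani, 9460 in Jersey and 8930 in Holstein. All 10 mitochondrial protein-coding models exceeded the highest nuclear subunit in Cholistani and Jersey, and likewise in Holstein, where ND5 did so narrowly at 8946 FPKM. For complex I the median of the 6 mitochondrial models, with ND4L/ND4 as a sum, was 30.7 times that of 32 nuclear subunits in Cholistani, 42.1 times in Jersey and 44.5 times in Holstein. For complex III, CYTB was at 21.8 times the median of 8 nuclear subunits in Cholistani, 30.1 times in Jersey and 34.6 times in Holstein. For complex IV the ratio of COX1 and COX2 to 12 nuclear subunits was 50.6, 51.5 and 51.4 in that order. These ratios depend on the summary. With summed FPKM in place of medians, an alternative chosen after seeing the data, the ratio was 9.14, 9.28 and 9.38 for complex I in Cholistani, Jersey and Holstein, 2.8, 2.88 and 3.62 for complex III, and 7.35, 5.61 and 5.26 for complex IV. Complex I was then nearly level and complex IV highest in Cholistani, while complex III was close to Jersey and below Holstein in Cholistani. The complex IV order rests largely on 1 nuclear gene. COX4I1 held 1338 of the 25022 FPKM summed over nuclear subunits in Cholistani, 9460 of 22668 in Jersey and 8930 of 21333 in Holstein.

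**Figure D5:**
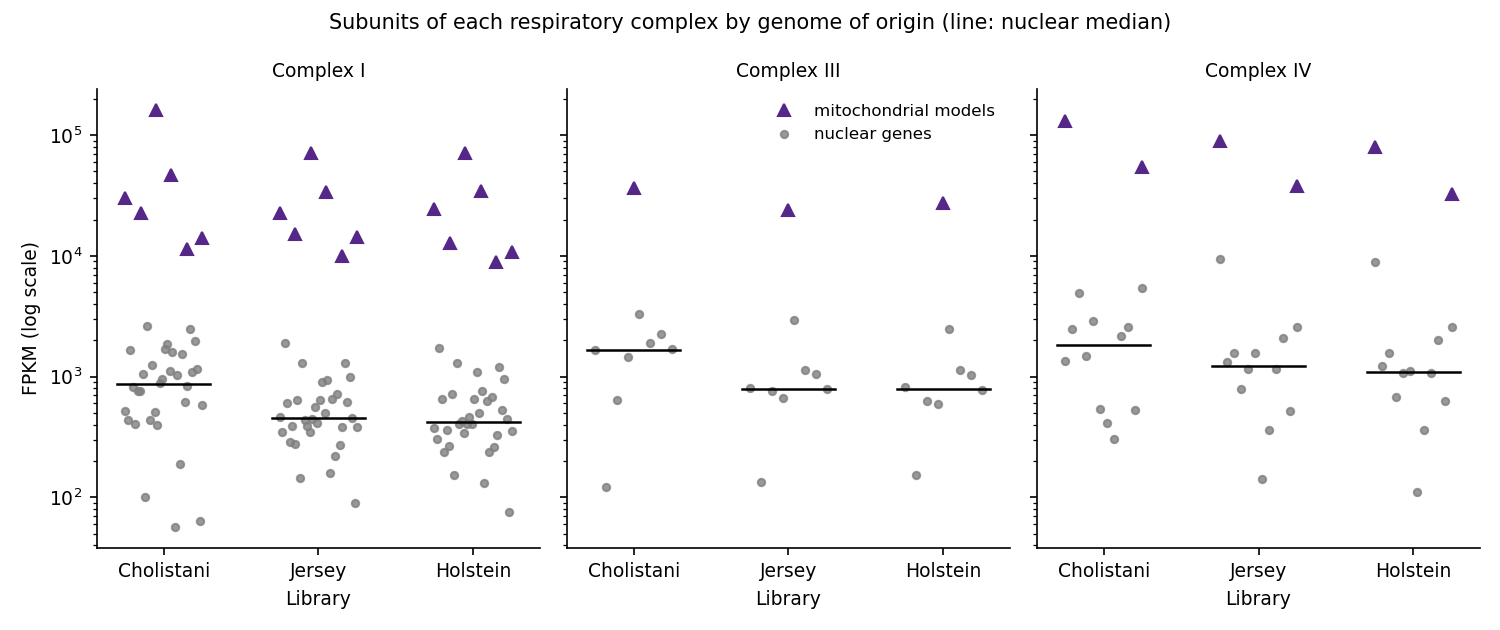
FPKM (log axis) of mitochondrial models (triangles) and measured nuclear genes (grey circles, black line at their median) for complexes I, III and IV in each library. Every triangle lies above all circles of its complex; the merged ATP8/ATP6/COX3 model is not shown.

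Between Cholistani and Holstein the nuclear subunits had a median log2 ratio of 0.76, against 0.57 for the mitochondrial protein-coding models. On the deposited scale 29 of 68 nuclear subunits were at least 2-fold higher and 3 lower, where the background was 19.7% and 13.7%. Some of the 29 lay just above the threshold, such as COX5A and COX7A2L, both at 1.005. These counts were not repeated on another scale. Against Jersey the medians were 0.73 and 0.52, with 23 nuclear subunits higher and 3 lower, where the background was 17.2% and 14.2%. Between Jersey and Holstein none of the 68 differed by 2-fold, where the background was 7.99% higher and 4.70% lower. The medians there were 0.05 and 0.12. After rescaling to equal sums, the median of the nuclear subunits was 0.08 between Cholistani and Holstein and that of the mitochondrial models -0.11.

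In complex I, relative to Holstein, 15 of 32 nuclear subunits were 2-fold or more higher in Cholistani and 1 was lower. Over all models, 19.7% were higher and 13.7% lower in this comparison. NDUFB2 had 1243 FPKM in Cholistani, 388 in Jersey and 429 in Holstein, and NDUFA9 had 755, 274 and 265 FPKM. These were the 2 farthest from 0, while NDUFA4, the most abundant of the 32 by mean, had 1672, 1881 and 1728 FPKM. In complex III, 4 of 8 were higher, among them CYC1, the cytochrome c1 partner of CYTB, with 1689, 786 and 771 FPKM. In complex IV, 7 of 12 were higher and 2 were lower, the latter a share near the background of 13.7%. COX4I1, the largest nuclear subunit, was the lowest of them relative to Holstein, with 1338 FPKM in Cholistani, 9460 in Jersey and 8930 in Holstein. On the deposited scale this was opposite in direction to COX1 and COX2. After rescaling to equal sums, COX1 and COX2 were near 0, at 0.03 and 0.04 against Holstein and -0.05 and -0.10 against Jersey. COX7A1, an isoform best known from muscle, had 412, 142 and 110.0 FPKM. In ATP synthase, 3 of 16 were higher, a share near the background of 19.7%, and none was lower. ATP5PF had 2772, 1106 and 1107 FPKM.

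Of 28 nuclear genes for mitochondrial transcription and RNA processing, 15 were measured, and 2 reached a 2-fold higher level in Cholistani relative to Holstein, a smaller share than the 19.7% of all models. SLIRP, which binds LRPPRC and stabilizes mitochondrial mRNAs, had 682 FPKM in Cholistani, 378 in Jersey and 295 in Holstein. HSD17B10, a subunit of mitochondrial RNase P, had 1393, 827 and 636 FPKM. None of the 15 was 2-fold lower, where 13.7% of all models were, and the median log2 ratio of the 15 was 0.26. The following were named after their values were seen. The RNA polymerase gene POLRMT had 84.4, 75.0 and 68.5 FPKM, and TFAM, which packages the genome and starts transcription, had 110.4, 139 and 133 FPKM. LRPPRC had 294, 246 and 233 FPKM. TRMT10C, another RNase P subunit, had 68.7, 110.1 and 103.9 FPKM, and ELAC2, which cuts the other end of the tRNAs, had 143, 90.2 and 87.9 FPKM. No gene of this list differed by 2-fold between Jersey and Holstein, where the background was 7.99% higher and 4.70% lower. The same held between Cholistani and Jersey, where the background was 17.2% higher and 14.2% lower.

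Nuclear chromosomes of mammals carry copies of mitochondrial sequence, and the alignment kept reads that mapped to several places. Reads shared with such copies could not be separated here, so the levels of the 12 models are uncertain to that extent.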

How the data were processed

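Leukocyte poly(A) RNA of 3 breeds went into 1 library per breed, sequenced by the authors. Per the labels and the paper's methods, TopHat v1.0.14 with Bowtie v0.12.7 placed the reads on btau4.0, and transcripts were assembled and estimated with Cufflinks v0.9.3. The deposited values are FPKM, to which the authors applied upper-quartile normalization and a sequence bias correction, and no fragment counts come with them, so the depth behind a value is unknown. They were used as deposited. Low values showed no steps of whole fragments.

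Members were all models on the mitochondrial chromosome with an FPKM above 0. Starts are printed as listed plus 1, because 24 of the 34 listed spans then equal a RefSeq gene. The 5 models with missing values were left out of folds. Folds are log2 ratios of FPKM + 1, with 2-fold as threshold; other pseudocounts, filters and scales were tried. Nuclear genes were matched by symbol or protein entry name, using the most abundant model. Every member was named. Of each nuclear list, members were chosen among the 2 most abundant and the 2 farthest from 0 between Cholistani and Holstein, and not all of these were named. COX5A, COX7A2L, POLRMT, TFAM, LRPPRC, TRMT10C and ELAC2 were named outside this rule. Members and lists were chosen with earlier results of these data known. Functions were tested on simulated data (Python 3.11.15, pandas 2.3.3). Some marker genes are not reported here.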

Additional observations from a re-analysis of the deposited data

How the results depend on the processing

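No paired analysis was possible because each breed is 1 library, and for the same reason no replicate could be left out. Pseudocounts of 0.1 and 10 FPKM, a minimum of 10 FPKM, and detection limits of 1 and 10 FPKM changed no count of models and no median by 0.1 or more. Rescaling to the mean FPKM sum turned the median log2 ratio of the 12 models in Cholistani from 0.42 to -0.26 against Holstein and from 0.48 to -0.12 against Jersey. With sums over nuclear models only, these medians were -0.25 and -0.12. On both scales and in each comparison, 0 models reached a 2-fold higher and 2 (both rRNAs) a 2-fold lower level. How many of all models did so was not counted. Over all models the median after rescaling to the mean FPKM sum was -0.43 against Holstein and -0.41 against Jersey. The log2 ratio of the summed mitochondrial FPKM became 0.039 and 0.0424 against Holstein (0.72 as deposited) and 0.0324 and 0.0353 against Jersey (0.63). Centring on nuclear models with at least 10 FPKM gave medians of 0.24 and 0.33 and summed ratios of 0.54 and 0.48, with 1 model (16S rRNA) at least 2-fold lower against Holstein. The number among all models was not counted on that scale either. With protein-coding models only, the median against Holstein was 0.57, and 0 models were at least 2-fold lower against Jersey, since the rRNAs are left out. The mitochondrial share of the FPKM sum over named models was 9.65% in Cholistani, 8.97% in Jersey and 8.90% in Holstein. Without the 10 most abundant nuclear models of each library it was 9.40%, 8.84% and 8.85% in the same order. In both settings Cholistani stood farther above the taurine libraries than over all models. No result between Jersey and Holstein moved by 0.1. Which scale is right was not tested.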
